A study of Mus musculus with 8 samples.

Results

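The 10 genes described here belong to the bone morphogenetic protein (BMP) pathway and were taken by symbol from the 32285 genes counted. They are 5 ligand genes (Bmp2, Bmp4, Bmp5, Bmp6 and Gdf10), the protease gene Bmp1 and 4 genes of secreted antagonists (Grem1, Nog, Chrdl1 and Fst). All 10 were detected in both libraries, and together they held 3418 UMIs in ND and 5146 in HFD cells.

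The cells came from the periosteum, the membrane on the outer bone surface, of left femurs and tibias of male C57BL/6J mice aged 16 weeks. From 4 weeks of age they ate either normal chow (ND) or a diet in which fat supplied 60% of calories (HFD) for 12 weeks, 4 mice each, and cells freed by digestion with dispase and collagenase were loaded on a droplet system. Each diet is 1 pooled library in which no barcode is tied to a mouse, so no test between diets was possible and each difference below describes 2 libraries without a replicate check. Levels are given as unique molecular identifiers (UMIs, 1 per captured RNA molecule) per 1000000 UMIs of the cell class (UPM), with exact 95% intervals that cover counting error only.

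Typical BMP ligands such as Bmp2 and Bmp4 are secreted dimers that bind complexes of type I and type II receptors, which phosphorylate Smad1, Smad5 and Smad9. In bone they are known for driving skeletal precursors toward cartilage and bone, and their reach is limited by antagonists that bind the ligand outside the cell. Noggin (Nog), gremlin 1 (Grem1) and chordin-like 1 (Chrdl1) bind BMPs, follistatin (Fst) binds activins with high affinity and also some BMPs, and Bmp1 is not a ligand but a metalloprotease that cleaves procollagens and chordin.

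The libraries held 6314 (ND) and 6636 (HFD) barcodes with 48558889 and 49940976 UMIs, of which 6029 and 6224 barcodes passed the filter on detected genes and mitochondrial UMIs. Of all barcodes, 15 occur in both libraries. Clustering without the 10 genes gave 27 clusters. Mesenchymal-like cells, in which all 6 defining markers (Pdgfra and Col1a1 among them) were detected, numbered 409 in ND (6.78% of kept cells) and 669 in HFD (10.7%), with median depths of 10666 and 9556 UMIs. In mesenchymal-like cells the 6 markers summed to 26935 (ND) and 31728 (HFD) UPM, against 131 and 204 in neutrophil-like cells. The 8 neutrophil markers summed to 19472 (ND) and 9976 (HFD) UPM in the mesenchymal-like cells and the 8 macrophage and monocyte markers to 148 and 61.4, with none of the 16 at 0.

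Of the 10 genes, 8 had their highest level in mesenchymal-like cells in both libraries, which held for 11.2% of all 15994 genes with enough UMIs. The exceptions were Bmp2 and Bmp6. The mesenchymal-like cells held 90.4% and 92.5% of Bmp1 UMIs (in ND and HFD), 92.1% and 85.5% of Bmp4 UMIs, 95.6% and 91.8% of Bmp5 UMIs and 97.7% and 92.3% of Gdf10 UMIs. Among the antagonists, the shares were 95.4% and 98.8% for Grem1, 96.7% and 93.9% for Nog, 98.8% and 96.2% for Chrdl1, and 83.1% and 92.5% for Fst. They were lower for Bmp2, at 63.2% and 74.8%, and lowest for Bmp6, at 43.8% and 29.2%. A UMI was found in 6.28% (Bmp6, HFD) to 56.0% (Bmp1, ND) of mesenchymal-like cells, and in at most 1.15% (Fst) of neutrophil-like cells (median depths of 4128 and 4303 UMIs).

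**Figure D1:**
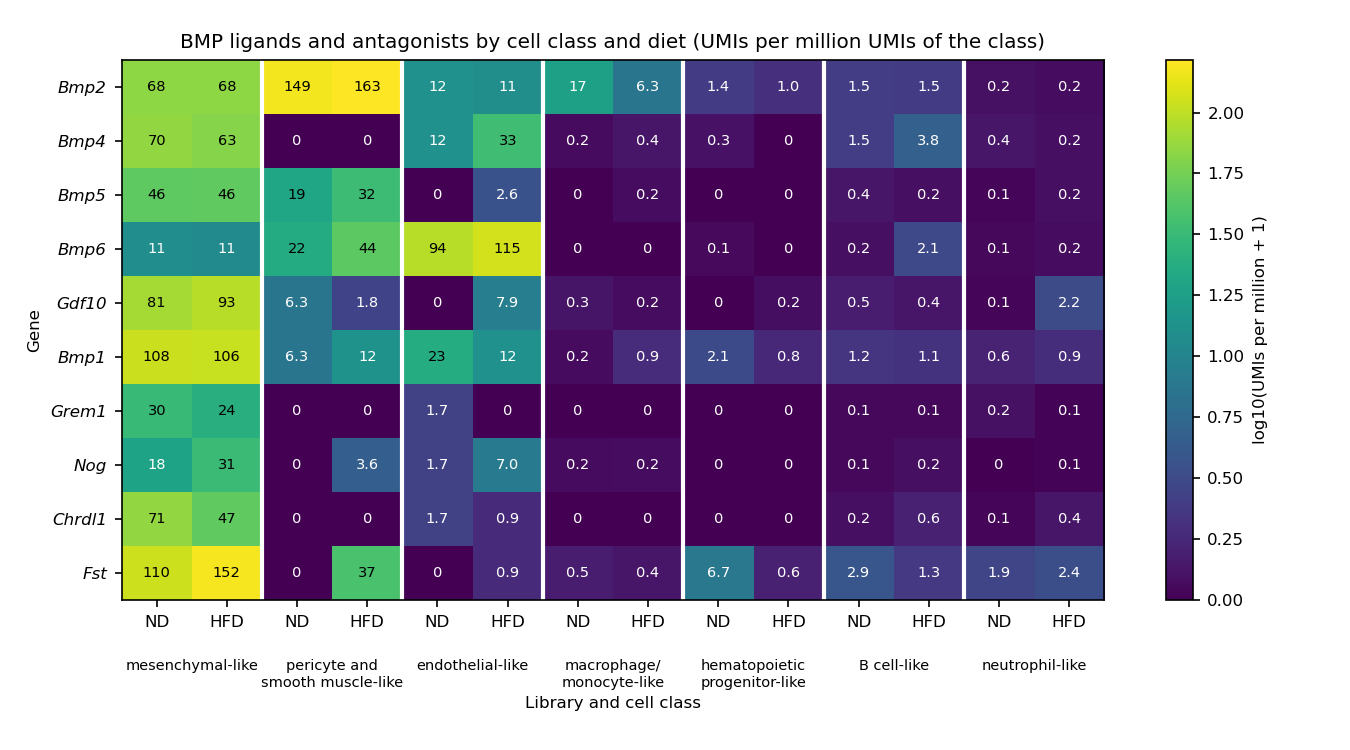
Levels (UPM; color on a log10 scale) of the 10 genes in rows and 7 cell classes of each library in columns. The 4 antagonists are low outside mesenchymal-like cells except Fst in HFD pericyte and smooth muscle-like cells, where Bmp2 peaks at 149 (ND) and 163 (HFD), and Bmp6 peaks in endothelial-like cells at 93.5 and 115.

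By position in GRCm38, Grem1 (chr2:113746164-113758646, minus strand) and Bmp2 (chr2:133552159-133562885, plus strand) are on chromosome 2, and Bmp6 (chr13:38345107-38500302, plus strand) and Fst (chr13:114452290-114458951, minus strand) on chromosome 13. Bmp1 (chr14:70474558-70520234, minus strand), Bmp4 (chr14:46383520-46390669, minus strand) and Gdf10 (chr14:33923587-33937983, plus strand) are on chromosome 14. Bmp5 (chr9:75775364-75900310, plus strand), Nog (chr11:89300638-89302332, minus strand) and Chrdl1 (chrX:143285674-143394262, minus strand) are each on a chromosome of their own among the 10. In the annotation, Bmp6 overlaps Txndc5 and 4930579J19Rik on the opposite strand, Bmp4 overlaps Gm15217 and Gm15222, Bmp5 overlaps Gm26903, and Fst overlaps Gm47040, all on the opposite strand. Their counts therefore depend on strand having been kept in counting.

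The RefSeq promoter table (GRCm38.p6) holds 5 of the 10 genes. The 250 bases before the start are shown for 3 of them (Grem1, Bmp5 and Gdf10), because they differ in base composition. Capitals mark GC boxes, GGGCGG on either strand. The windows are Grem1 at chr2:113758649-113758898 (minus strand), Bmp5 at chr9:75775115-75775364 (plus strand) and Gdf10 at chr14:33923337-33923586 (plus strand).
Grem1: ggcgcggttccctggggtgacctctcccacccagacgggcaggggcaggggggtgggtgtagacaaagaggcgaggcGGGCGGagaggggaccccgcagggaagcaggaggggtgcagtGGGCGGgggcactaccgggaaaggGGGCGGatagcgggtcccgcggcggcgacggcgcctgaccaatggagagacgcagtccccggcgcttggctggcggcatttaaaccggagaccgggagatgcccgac
Bmp5: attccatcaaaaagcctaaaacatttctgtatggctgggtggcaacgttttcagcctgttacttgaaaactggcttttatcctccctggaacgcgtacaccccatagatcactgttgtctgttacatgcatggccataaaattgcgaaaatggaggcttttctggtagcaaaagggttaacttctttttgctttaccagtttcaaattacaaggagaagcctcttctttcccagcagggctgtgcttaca
Gdf10: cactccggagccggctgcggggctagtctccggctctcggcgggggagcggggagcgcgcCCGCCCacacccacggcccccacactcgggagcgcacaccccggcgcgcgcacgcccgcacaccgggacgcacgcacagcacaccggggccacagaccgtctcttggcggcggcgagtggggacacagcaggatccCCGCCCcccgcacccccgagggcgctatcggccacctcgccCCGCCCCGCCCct
Grem1 held 3 GC boxes in this stretch, Gdf10 held 4 and Bmp5 held 0. In windows of 300 bases (250 before to 50 after the start), G and C made up 70.7% for Grem1, 77.3% for Gdf10 and 43.3% for Bmp5, beside a median of 52.7% over 32851 promoters, of which 35.7% held a GC box. Bmp4 and Bmp6 each held 1 GC box, at 64% and 69.3% G and C. These matches describe the letters of the windows and say nothing of the levels.

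Bmp2, a ligand known for its role in bone formation and fracture repair, was highest in pericyte and smooth muscle-like cells, the contractile cells around vessels, at 149 UPM (109 to 198) in ND and 163 (132 to 200.3) in HFD. This class held 31 ND and 59 HFD cells, of which 20 and 38 had a Bmp2 UMI. Mesenchymal-like cells followed at 67.5 (60.3 to 75.3) and 68.1 (62.2 to 74.6), lower by more than counting error in both libraries. Next came macrophage/monocyte-like cells at 17.3 (14.1 to 21.03) and 6.27 (4.34 to 8.76) and endothelial-like cells at 12.1 (4.87 to 24.98) and 11.4 (6.08 to 19.5), whose order was not set beyond counting error. All other classes stood at or below 5.36. Bmp2 in macrophage/monocyte-like cells lay mostly in the cluster led by complement C1q genes, where 33 of 89 ND cells and 17 of 91 HFD cells had a UMI.

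Bmp6, known from liver endothelium as an inducer of the iron hormone hepcidin, was highest in endothelial-like cells, at 93.5 UPM (70.3 to 122) in ND and 115 (96.2 to 136) in HFD. A UMI was found in 31.6% of 117 ND cells and 32.5% of 234 HFD cells (median depths of 4385 and 4045 UMIs), against 0.0832% and 0.124% of neutrophil-like cells. Pericyte and smooth muscle-like cells were next at 22.2 (8.91 to 45.7) and 44.4 (28.7 to 65.5), and mesenchymal-like cells stood at 11.1 (8.30 to 14.5) and 10.59 (8.32 to 13.3). When endothelial-like cells were clustered again, lymphatic-like cells (42 ND and 58 HFD cells) had 22.5 (8.27 to 49.1) and 54.5 (34.1 to 82.5). A subcluster led by Rgs5, Hist1h2ap and Prc1 (40 and 123 cells) had 180.2 (110.0 to 278) and 136 (104 to 175), and one led by Tnfsf9, Dnaja4 and Slc1a1 (29 and 43 cells) had 196 (128 to 287) and 184 (125 to 261). Neither got a name from its markers, and both lay above the lymphatic-like cells by more than counting error in each library. Rgs5 is itself a pericyte and smooth muscle marker. The markers of that class summed to 27.0 (ND) and 639 (HFD) UPM in the Rgs5-led subcluster, beside 7531 and 5976 for the endothelial markers. Their part in its Bmp6 level was not tested.

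Bmp4 and Bmp5, ligands of skeletal and organ development, each had a weaker site outside mesenchymal-like cells. In mesenchymal-like cells Bmp4 was at 70.4 UPM (63.1 to 78.4) in ND and 63.4 (57.7 to 69.6) in HFD, and it was at 12.1 (4.87 to 24.98) and 33.4 (23.6 to 45.8) in endothelial-like cells. No Bmp4 UMI was found in pericyte and smooth muscle-like cells, which allows up to 9.50 and 5.33 UPM (3 counts). Bmp5 was at 45.6 (39.7 to 52.0) and 46.2 (41.3 to 51.6) in mesenchymal-like cells and at 19.0 (6.97 to 41.4) and 31.95 (18.9 to 50.5) in pericyte and smooth muscle-like cells, and at or below 2.63 in all other classes. Gdf10, also called BMP3B, was at 81.1 (73.2 to 89.6) and 93.2 (86.2 to 101) in mesenchymal-like cells and at or below 7.90 elsewhere. Bmp1 was at 108 (99.3 to 118) and 106 (98.4 to 114) there, against 22.5 (11.99 to 38.5) and 12.3 (6.72 to 20.6) in endothelial-like cells.

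Of the antagonists, Grem1, Nog and Chrdl1 had few UMIs outside mesenchymal-like cells. In mesenchymal-like cells Grem1 was at 30.3 UPM (25.6 to 35.7) in ND and 23.6 (20.2 to 27.5) in HFD, with 145 and 165 UMIs against 7 and 2 in all other cells. Nog was at 18.4 (14.8 to 22.7) and 31.1 (27.1 to 35.5), with 3 and 14 UMIs in other cells, 7 of the latter in 1 endothelial-like cell. Chrdl1 was at 71.3 (63.9 to 79.3) and 46.7 (41.7 to 52.0), with 4 and 13 UMIs in other cells.

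Fst was at 109.9 (101 to 119.8) and 152 (143 to 161) in mesenchymal-like cells and had 107 and 86 UMIs elsewhere. A few cells held most of the UMIs in several other classes. In ND, 47 were in hematopoietic progenitor-like cells, with 29 in 1 cell, and 25 in B cell-like cells, with 23 in 1 cell. In HFD pericyte and smooth muscle-like cells, 14 of 21 were in 1 cell, and the ND cells of that class had 0, which allows up to 9.50 UPM.

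Mesenchymal-like cells clustered again gave 9 subclusters, among which the 10 genes were unevenly spread. The 4 largest were Col15a1/Ccl11 fibroblast-like cells (102 ND and 175 HFD cells), an unnamed subcluster led by Nppc, Fbxo2, Dio2, Mfap4 and Egfl6 (88 and 121 cells), Pi16/Dpp4 fibroblast-like cells (91 and 101) and osteoblast-like cells (59 and 128). Smaller ones were tenocyte-like (7 and 33), chondrocyte-like (8 and 16) and synovial lining-like (4 and 14). A subcluster with a median of 2093 (ND) and 2002 (HFD) UMIs per cell (18 and 50 cells) and one led by the neutrophil genes Retnlg, Stfa2l1 and Cstdc4 (32 and 31 cells) stayed unnamed. The leading subcluster was the same in both libraries for 5 of the 10 genes (Bmp4, Bmp5, Grem1, Chrdl1 and Fst), beside 36.1% of all genes with enough UMIs.

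**Figure D2:**
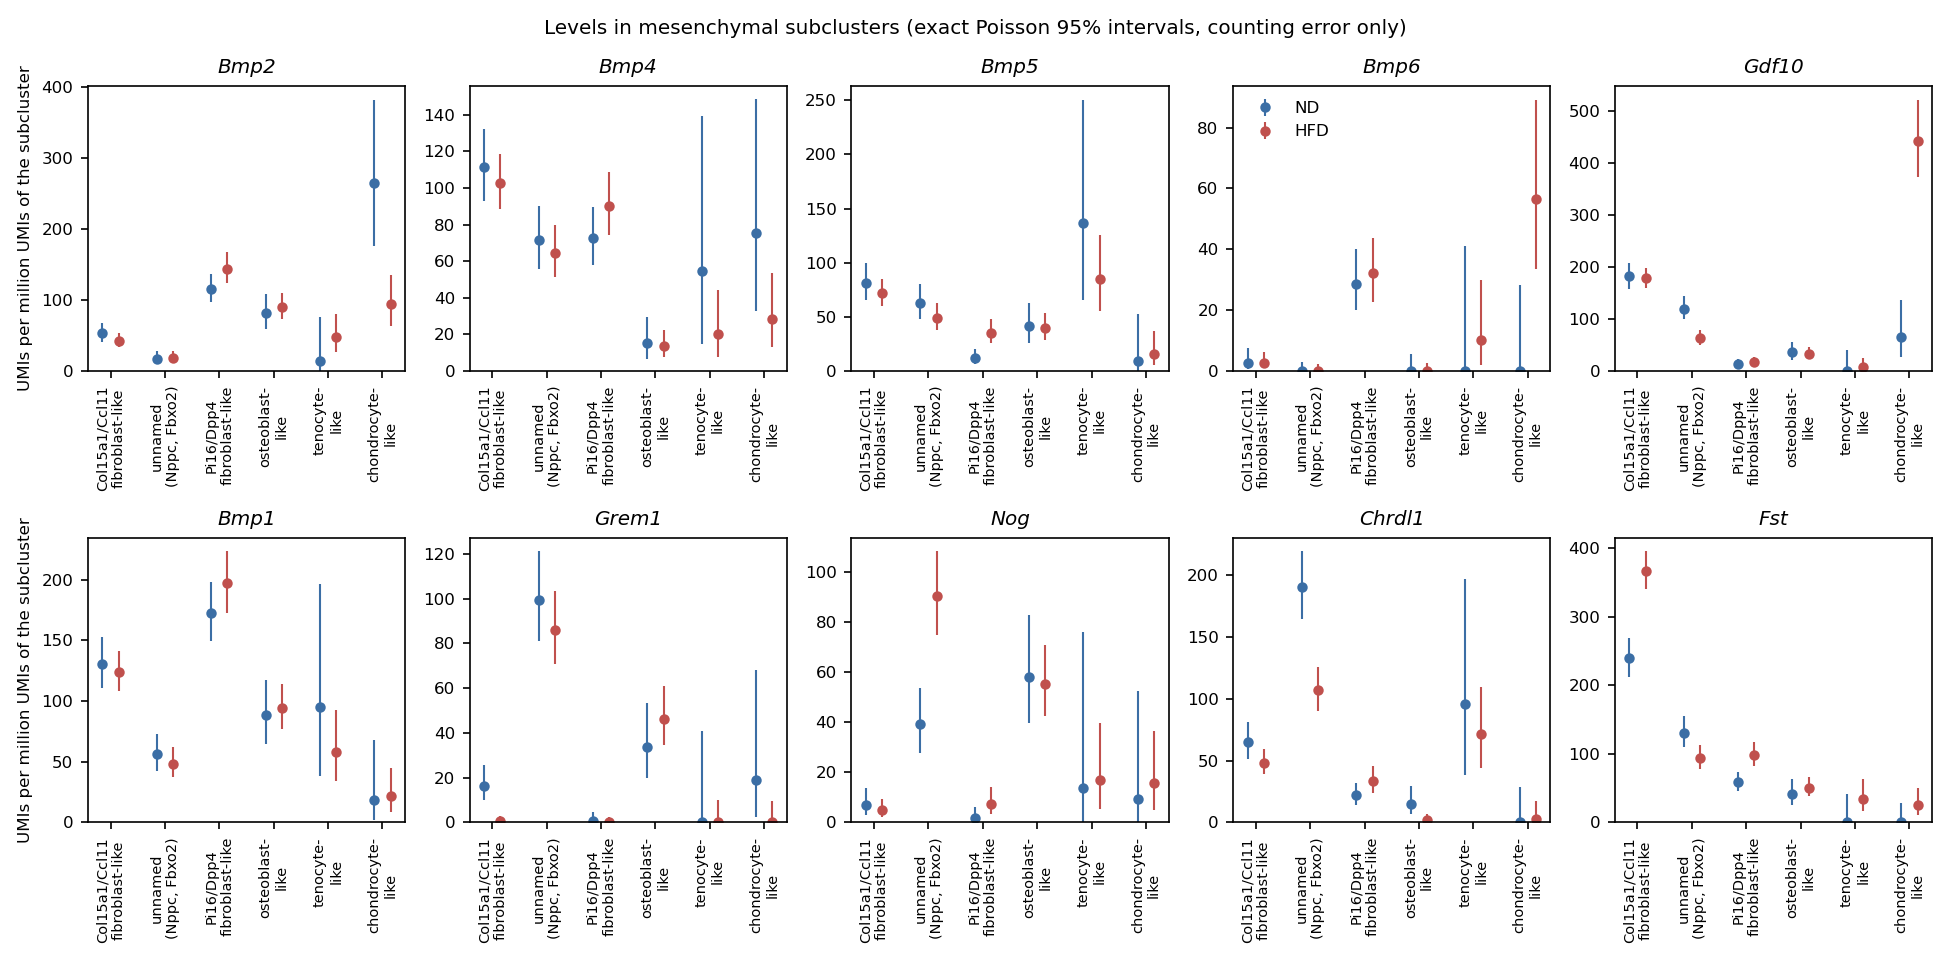
Level of each gene (UPM, vertical axis with its own range per panel) in 6 mesenchymal subclusters of the ND and HFD library, as points with exact Poisson 95% intervals. Grem1, Nog and Chrdl1 stand high in the Nppc, Fbxo2 subcluster, Fst in Col15a1/Ccl11 fibroblast-like cells, and Bmp1 in Pi16/Dpp4 fibroblast-like cells, while wide intervals mark the subclusters with few cells.

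Grem1 had 2 sites. In the Nppc, Fbxo2 subcluster it was at 99.6 UPM (80.9 to 121) in ND and 85.9 (70.7 to 103) in HFD, and in osteoblast-like cells at 33.8 (20.0 to 53.4) and 46.3 (34.4 to 60.8). Pi16/Dpp4 fibroblast-like cells held 1 Grem1 UMI in ND and 0 in HFD. In the Nppc, Fbxo2 subcluster the UMIs came from few cells, 16 of 88 in ND and 18 of 121 in HFD, with up to 20 and 38 UMIs in 1 cell. In osteoblast-like cells 9 of 59 and 28 of 128 had a UMI, with at most 6 and 6 in 1 cell. Col15a1/Ccl11 fibroblast-like cells held 19 UMIs in ND and 1 in HFD, and 18 of the 19 were in 1 cell.

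Nog was found at the same 2 sites. It was at 39.2 UPM (27.9 to 53.6) in ND and 90.5 (74.9 to 108) in HFD in the Nppc, Fbxo2 subcluster and at 58.2 (39.6 to 82.7) and 55.3 (42.3 to 71.1) in osteoblast-like cells, while both fibroblast-like subclusters were at or below 7.39. In ND the intervals of the 2 sites overlapped, and in HFD the Nppc, Fbxo2 subcluster lay above osteoblast-like cells. Within the Nppc, Fbxo2 subcluster, 6 of 16 Grem1-positive ND cells also had a Nog UMI, which were 30% of the 20 Nog-positive cells. In HFD, 9 of 18 did, 18% of the 50 Nog-positive cells. Of all cells of the subcluster, 20 of 88 in ND and 50 of 121 in HFD had a Nog UMI.

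Chrdl1 led in the Nppc, Fbxo2 subcluster as well, at 190.1 (164 to 219) and 107 (89.6 to 126), but was low in osteoblast-like cells, at 15.0 (6.49 to 29.6) and 1.81 (0.220 to 6.55). Its next sites among the named subclusters were tenocyte-like cells at 95.4 (38.4 to 197) and 71.5 (44.3 to 109), which rest on 7 and 21 UMIs, and Col15a1/Ccl11 fibroblast-like cells at 64.8 (51.0 to 81.3) and 48.3 (38.8 to 59.5). The shallow unnamed subcluster, with 4 and 11 Chrdl1 UMIs, is left out of this order. A Chrdl1 UMI was found in 14 of the 20 Nog-positive ND cells and in 28 of the 50 Nog-positive HFD cells of the Nppc, Fbxo2 subcluster. Of all cells of that subcluster, 57 of 88 in ND and 59 of 121 in HFD had one, and the overlap was not tested.

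Fst was highest in Col15a1/Ccl11 fibroblast-like cells, at 239 UPM (212 to 269) in ND and 367 (339 to 395) in HFD. The Nppc, Fbxo2 subcluster followed in ND at 131 (109 to 155), above Pi16/Dpp4 fibroblast-like cells at 58.3 (45.4 to 73.8). In HFD those subclusters, at 94.4 (78.4 to 113) and 98.5 (81.7 to 118), did not differ beyond counting error. Osteoblast-like cells had 41.3 (25.9 to 62.6) and 50.8 (38.4 to 66.0). Gdf10 was at 182 (158 to 208) and 178 (159 to 198) in Col15a1/Ccl11 fibroblast-like cells, at 119.7 (99.1 to 143) and 62.9 (50.03 to 78.1) in the Nppc, Fbxo2 subcluster, and lower in Pi16/Dpp4 fibroblast-like cells, at 13.5 (7.73 to 21.9) and 18.1 (11.3 to 27.4). Of the Gdf10-positive mesenchymal-like cells, 57.0% in ND and 54.8% in HFD also had an Fst UMI, which were 45.1% and 35.2% of the Fst-positive cells. Over all mesenchymal-like cells, an Fst UMI was found in 144 of 409 and in 227 of 669.

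Among the 4 large subclusters, Bmp1, Bmp2 and Bmp6 were highest in Pi16/Dpp4 fibroblast-like cells (fibroblasts known from the adventitia of many tissues). Bmp2 was at 115 (96.4 to 136) and 144 (123 to 167) there, followed by osteoblast-like cells at 80.8 (58.5 to 109) and 89.8 (73.0 to 109), with the lowest of the 4 in the Nppc, Fbxo2 subcluster at 17.1 (9.96 to 27.4) and 18.4 (11.8 to 27.4). Bmp1 was at 172 (149 to 198) and 197 (173 to 224) in Pi16/Dpp4 fibroblast-like cells and at 131 (111 to 153) and 124 (108 to 141) in Col15a1/Ccl11 fibroblast-like cells. In ND the Bmp1 and Bmp2 intervals overlapped those of the next subcluster, and no interval was taken for the ratio between subclusters. Bmp6 was at 28.7 (19.9 to 40.1) and 32.03 (22.8 to 43.8) in Pi16/Dpp4 fibroblast-like cells, and no Bmp6 UMI was found in the Nppc, Fbxo2 or the osteoblast-like subcluster of either library. Small subclusters could stand above these. Chondrocyte-like cells had 264 (176 to 382) and 94.1 (63.5 to 134) for Bmp2, from 7 of 8 and 8 of 16 cells, and 18 Bmp6 UMIs in HFD, of which 13 were in 1 cell.

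Bmp4 was spread over the fibroblast-like and the Nppc, Fbxo2 subclusters and low in osteoblast-like cells. It was at 112 (93.1 to 133) and 103 (88.5 to 118) in Col15a1/Ccl11 fibroblast-like cells, at 71.4 (55.8 to 90.1) and 64.4 (51.4 to 79.8) in the Nppc, Fbxo2 subcluster, at 72.6 (58.1 to 89.7) and 90.3 (74.2 to 109) in Pi16/Dpp4 fibroblast-like cells and at 15.0 (6.49 to 29.6) and 13.6 (7.62 to 22.4) in osteoblast-like cells. Bmp5 was highest in tenocyte-like cells at 136 (65.4 to 251) and 85.1 (55.1 to 126), from 10 and 25 UMIs. Its levels in Col15a1/Ccl11 fibroblast-like cells, 81.3 (65.7 to 99.4) and 71.7 (59.99 to 85.0), did not differ from these beyond counting error. Pi16/Dpp4 fibroblast-like cells had the lowest Bmp5 of the 4 large subclusters, 11.8 (6.47 to 19.8) and 35.3 (25.6 to 47.6), although in HFD this was within counting error of osteoblast-like cells at 39.9 (29.0 to 53.6) and of the Nppc, Fbxo2 subcluster at 49.1 (37.8 to 62.7).

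Summed over genes, antagonist UMIs (Grem1, Nog, Chrdl1 and Fst) made up 45.5% (43.5 to 47.5) and 47.3% (45.7 to 48.9) of ligand plus antagonist UMIs in ND and HFD mesenchymal-like cells. By subcluster the share ran from 62.9% (59.3 to 66.5) and 66.0% (62.4 to 69.4) in the Nppc, Fbxo2 subcluster to 25.5% (21.2 to 30.2) and 30.4% (26.6 to 34.4) in Pi16/Dpp4 fibroblast-like cells among the 4 large ones, with osteoblast-like cells between them at 46.2% and 46.7%. Chondrocyte-like cells had 6.38% (1.34 to 17.5) and 6.45% (3.57 to 10.59), and in HFD Gdf10 made up 141 of their 203 ligand UMIs. Gdf10 is counted as a ligand by gene family, and the share does not measure BMP activity. Col15a1/Ccl11 fibroblast-like cells had 43.3% (40.0 to 46.6) and 51.4% (48.9 to 54.0), intervals that do not overlap. Most of their antagonist UMIs were Fst, 277 of 379 in ND and 675 of 774 in HFD. An antagonist UMI was found in 182 of 309 ND cells with a ligand UMI (58.9%) and in 282 of 469 such HFD cells (60.1%). In cells without a ligand UMI the shares were 53% and 42%. All of these shares depend on the depth of the cells.

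**Figure D3:**
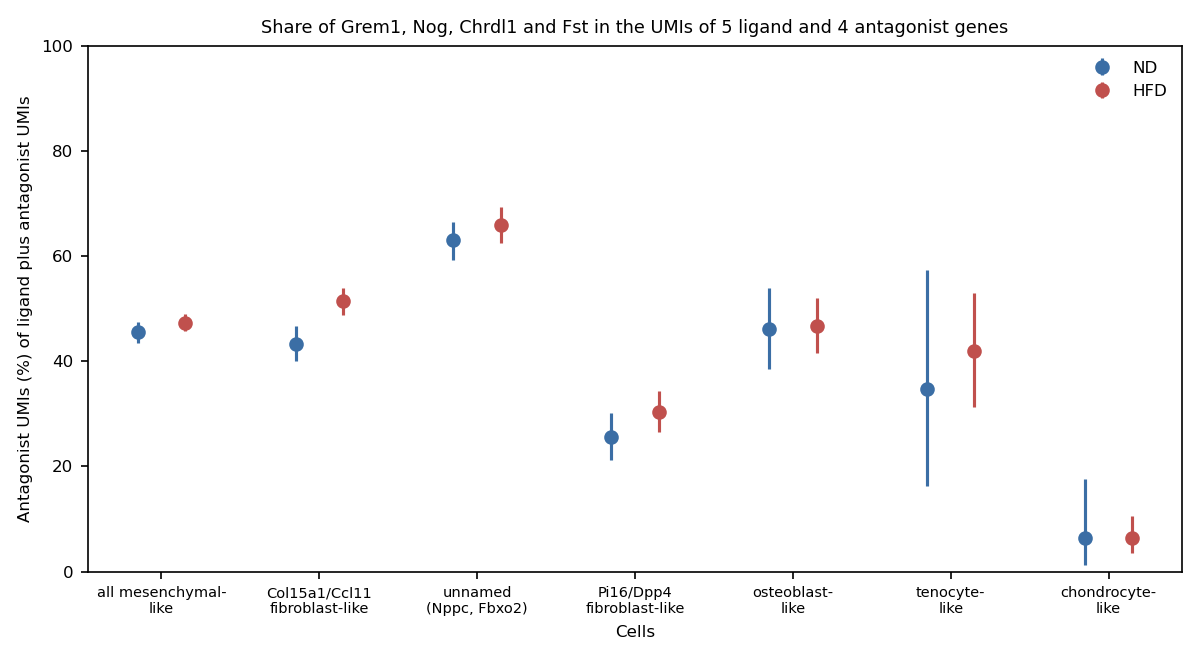
Share (%) of the 4 antagonist genes in the UMIs of 5 ligand and 4 antagonist genes, in all mesenchymal-like cells and 6 subclusters of the ND and HFD library, as points with exact 95% intervals. The share is highest in the Nppc, Fbxo2 subcluster, at 62.9% and 66.0%, and lowest of those shown in chondrocyte-like cells, at 6.38% and 6.45%.

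For each of the 10, the genes whose level was most alike over 29 clusters with at least 20 cells in each library were taken by the lower of the ND and HFD Pearson r of log2(UPM + 10). These clusters share library, depth and the contrast of mesenchymal with blood cells, so r is a description. For Grem1 they were Galr2 (0.97), Scx (0.95) and Mkx (0.95), of which Scx and Mkx are transcription factors of tendon. Tenocyte-like cells, with 7 cells in ND, were not among the 29 clusters and held 0 Grem1 UMIs in either library. For Nog the closest genes were Dlx5 (0.97), Galr2 (0.96) and Ptn (0.96). Chrdl1 was followed by Maob (0.96), Fgf18 (0.95) and Arhgap20 (0.94), and Fst by Lama2 (0.95), Gas1 (0.94) and Abca8a (0.94). For Bmp6 the closest were Lims2 (0.94), Cav1 (0.92), the gene of the main caveolar protein, and Hrct1 (0.91). The closest for the others were Scara3 for Bmp1 (0.97), Kank2 for Bmp2 (0.94), Nid1 for Bmp4 (0.95), Calhm5 for Bmp5 (0.96) and Smoc2 for Gdf10 (0.95). Among the 10 themselves, r was 0.94 in ND and 0.92 in HFD for Grem1 with Nog, and 0.01 and -0.12 for Grem1 with Bmp6.

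The comparison of diets asked whether ligands and antagonists stood at other levels in HFD than in ND cells of a like kind. In mesenchymal-like cells Nog had 88 UMIs in ND and 217 in HFD and was at 1.69-fold (1.31 to 2.19) of the ND level. Fst had 526 and 1059 UMIs and was at 1.38-fold (1.24 to 1.53). Chrdl1 lay the other way, at 0.655-fold (0.561 to 0.764) from 341 and 326 UMIs, and so did Grem1, at 0.779-fold (0.620 to 0.981) from 145 and 165. The Grem1 UMIs lay in only 31 of 409 ND and 48 of 669 HFD cells. Col15a1/Ccl11 fibroblast-like cells held 19 of them in ND, nearly all in 1 cell, and 1 in HFD. At its sites, the Nppc, Fbxo2 subcluster and osteoblast-like cells, the Grem1 intervals spanned 1 (0.653 to 1.14 and 0.786 to 2.49). Gdf10 was at 1.15-fold (1.01 to 1.31), Bmp4 at 0.900-fold (0.780 to 1.04), Bmp1 at 0.977-fold (0.872 to 1.09), Bmp2 at 1.01-fold (0.875 to 1.17), Bmp5 at 1.01-fold (0.852 to 1.21) and Bmp6 at 0.956-fold (0.663 to 1.39).

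At a limit of 1.5-fold, 1 of the 10 genes (Nog) was higher in HFD, where 8.03% of all 12621 genes with at least 20 UMIs were, and 1 (Chrdl1) was lower, where 5.78% of all genes were, so both counts were near the share of all genes. Over genes with at least 100 UMIs these shares were 3.36% and 2.84%. The median log2 ratio of the 10 genes was -0.01, beside 0.05 for all genes. With subclusters given equal weights, Nog and Chrdl1 were both inside the limit (log2 ratios of 0.51 and -0.52), and with cells thinned to 1000 UMIs Nog lay the other way (-0.47; a UMI in 2.69% and 1.95% of thinned cells, 13.2% and 15.8% unthinned). Without the shallow and the neutrophil-led subcluster, the log2 ratios were 0.71 for Nog, -0.68 for Chrdl1, 0.37 for Fst and -0.39 for Grem1.

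**Figure D4:**
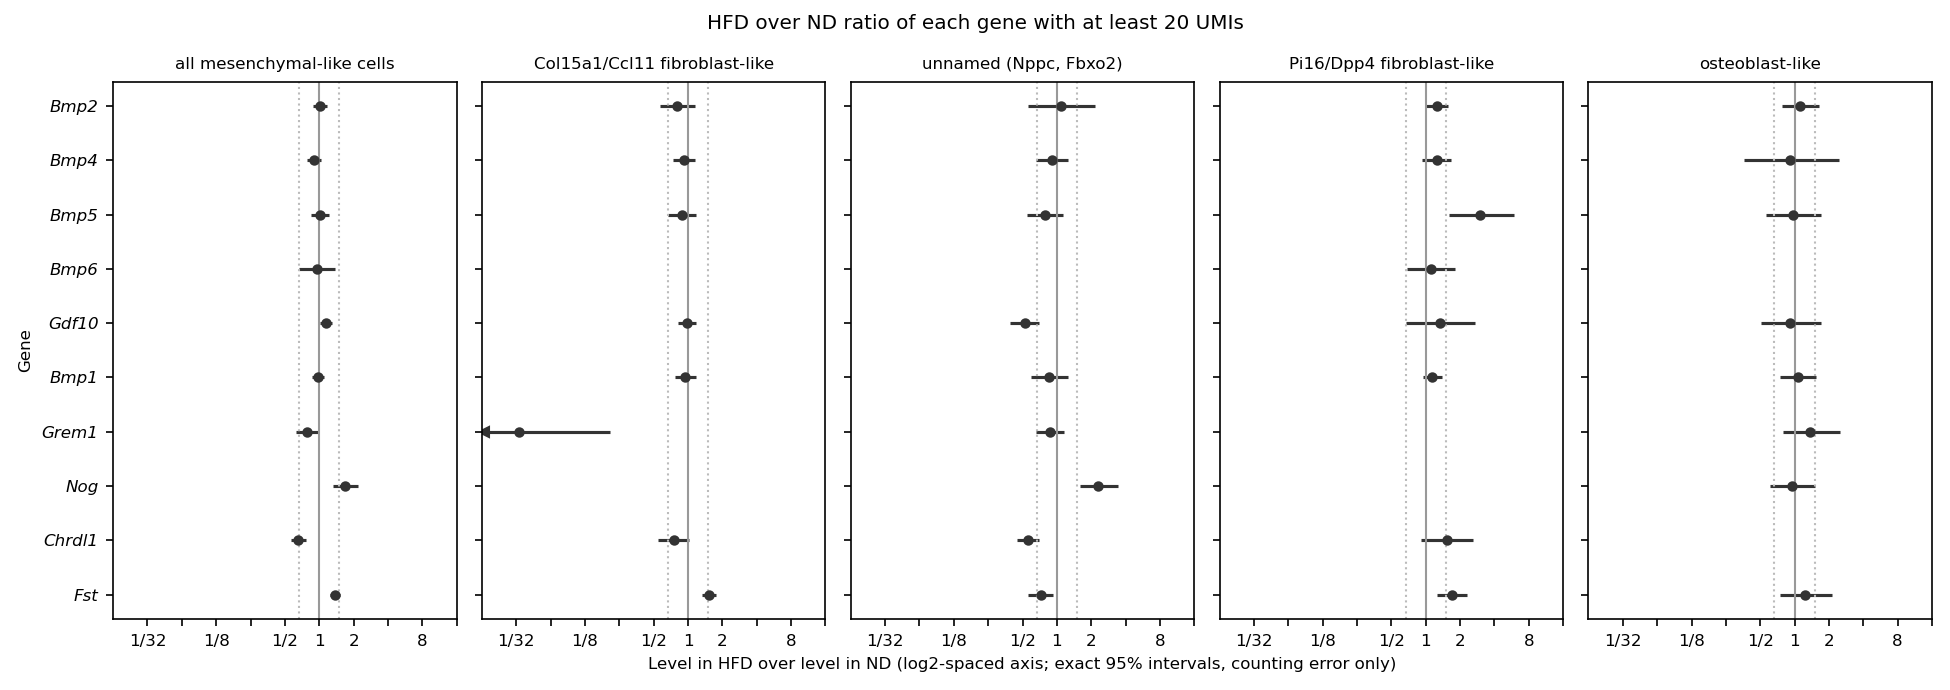
Level in HFD over level in ND (log2-spaced axis) of each gene with at least 20 UMIs, in all mesenchymal-like cells and the 4 largest subclusters, as points with exact 95% intervals and dotted lines at 1.5-fold either way. In the Nppc, Fbxo2 subcluster Nog lies at 2.31 and the intervals of Gdf10, Chrdl1 and Fst lie below 1. Bmp1, Bmp4, Bmp5 and Grem1 have points below 1 there, with intervals that span it. Fst lies above 1 in both fibroblast-like subclusters, and an arrowhead marks the Grem1 interval that runs off the axis.

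In the Nppc, Fbxo2 subcluster Nog was higher in HFD, while Chrdl1, Gdf10 and Fst were lower. Nog had 39 UMIs in 20 of 88 ND cells and 118 UMIs in 50 of 121 HFD cells (median depths of 11000.5 and 10148 UMIs), a ratio of 2.31 (1.59 to 3.41), and 2.54 without the cell with most UMIs in each library. Chrdl1 was at 0.561-fold (0.447 to 0.702) in HFD, from 57 of 88 and 59 of 121 cells, Gdf10 at 0.526-fold (0.392 to 0.702) and Fst at 0.722-fold (0.559 to 0.931). Grem1 was at 0.863-fold (0.653 to 1.14). Of 9 genes with enough UMIs there, 1 was at least 1.5-fold higher and 2 were lower, beside 10.2% and 7.81% of all genes. The median log2 ratio of the 9 was -0.22, beside 0.04 for all genes. Neutrophil markers summed to 1527 (ND) and 2045 (HFD) UPM in these cells, and 15 dissociation and immediate-early genes to 27400 and 19616. The part of either set in the differences was not tested.

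In osteoblast-like cells, the other site of Nog, it was at 0.95-fold (0.607 to 1.51), and none of 8 genes passed the limit, where 11.9% of all genes were higher and 11% lower. Grem1 was at 1.37-fold (0.786 to 2.49) there, an interval that spans 1.

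Fst was higher in HFD in both fibroblast-like subclusters, at 1.53-fold (1.33 to 1.77) in Col15a1/Ccl11 fibroblast-like cells and at 1.69-fold (1.25 to 2.31) in Pi16/Dpp4 fibroblast-like cells. Neutrophil markers stood at 12216 and 1294 UPM in the former and 2745 and 898 in the latter. The 15 dissociation and immediate-early genes stood at 34809 and 27065 in the former and 21954 and 17454 in the latter. The part of either set was not tested. Pi16/Dpp4 fibroblast-like cells also held more Bmp5, 14 UMIs in 11 of 91 ND cells and 43 in 20 of 101 HFD cells, a ratio of 2.99 (1.60 to 5.91). Chrdl1 was at 1.53-fold (0.916 to 2.61) there, so that 3 of 8 genes were past the limit upward and 0 downward, beside 10.2% and 7.96% of all genes. In Col15a1/Ccl11 fibroblast-like cells, 1 of 8 was higher (Fst) and 1 lower (Grem1, with 18 of 19 ND UMIs in 1 cell), beside 12.2% and 6.54%.

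Chondrocyte-like cells held 7 Gdf10 UMIs in ND and 141 in HFD, a ratio of 6.70 (3.17 to 17.0), from 2 of 8 and 7 of 16 cells, with 6 of the 7 and 46 of the 141 in 1 cell each. Without those cells the ratio was 31.6, but fewer than 3 ND UMIs were left, so its size cannot be read. Bmp2 was at 0.356-fold (0.206 to 0.619) in the same cells, and at 0.425 without the cell with most UMIs in each library. Neutrophil markers stood at 641 (ND, 3 of 8 at 0) and 12611 (HFD) UPM in them, and the 15 dissociation and immediate-early genes at 21790 and 8391. Their part was not tested. The intervals do not cover the spread between these few cells.

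Outside mesenchymal-like cells, Bmp2 was lower in HFD macrophage/monocyte-like cells. The class had 101 Bmp2 UMIs in ND and 34 in HFD, a ratio of 0.362 (0.238 to 0.539), and the C1q cluster had 90 and 33, at 74.8 (60.2 to 91.97) and 32.9 (22.6 to 46.2) UPM. In the class, the dissociation and immediate-early genes summed to 16641 UPM in ND and 8922 in HFD and the neutrophil markers to 4389 and 2172, and their part in the Bmp2 difference was not tested. Bmp4 in endothelial-like cells was at 2.75-fold (1.21 to 7.30) from 7 and 38 UMIs, of which lymphatic-like cells held 1 and 20, with 7 of the 20 in 1 cell. In lymphatic-like cells the mesenchymal markers summed to 18.8 (ND) and 76.8 (HFD) UPM. The pericyte and smooth muscle markers summed to 33.8 and 208 there, and the part of either set was not tested. Endothelial Bmp6 was at 1.23-fold (0.889 to 1.72), and Bmp2 in pericyte and smooth muscle-like cells at 1.10-fold (0.764 to 1.59). Gdf10 in neutrophil-like cells had 1 UMI in ND and 38 in HFD, in 12 of 2429 cells with 17 in 1 of them. Of 26 pairs of a gene and a named class with at least 20 UMIs, 12 were at least 1.5-fold apart, beside 15.7% of all such pairs. With a minimum of 50 UMIs 4 of 15 were, and no share of all pairs was taken at that minimum. Of the 12, intervals spanned 1 for Bmp1 in endothelial-like cells and for Bmp5 and Bmp6 in pericyte and smooth muscle-like cells. Those of Fst outside mesenchymal-like cells had most UMIs of 1 library in 1 cell. The 15.7% was not matched to the UMI counts of these pairs.

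Over all kept cells, HFD stood from 0.957-fold (0.821 to 1.11) of the ND level for Chrdl1 to 2.47-fold (1.93 to 3.19) for Nog, with Bmp6 at 2.04-fold (1.63 to 2.55), Fst at 1.76-fold (1.60 to 1.94) and Gdf10 at 1.73-fold (1.53 to 1.96). The shares of mesenchymal-like and endothelial-like cells (the latter 1.94% and 3.76%) were higher in the HFD library as well, so in such sums more cells of a class and more RNA per cell cannot be told apart.

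The other pathway genes were described from a list of 56 genes, of which 43 had at least 20 UMIs in mesenchymal-like cells. Of these, 5 were at least 1.5-fold higher in HFD (Bmp7, Bmp8a, Acvr2b, Hey1 and Atoh8, all but Hey1 with under 100 UMIs and named after their values were seen) and 0 lower, beside 8.03% and 5.78% of all genes, and their median log2 ratio was 0.06, beside 0.05 for all genes. Among 5 other ligand genes with enough UMIs, Inhba, an activin subunit, was at 99.7 and 92.9 UPM in ND and HFD and Inhbb at 18.4 and 17.5. Of 11 receptors and co-receptors, 1 was higher (Acvr2b, 14 and 41 UMIs), while the type II receptor Bmpr2 was at 99.5 and 103 UPM and the decoy receptor Bambi at 97.6 and 81.2. Among 10 other antagonists and modulators 0 passed the limit, with Nbl1, also known as DAN, at 959 and 1119 and Fstl1, a follistatin-like protein, at 1156 and 926. Of 8 Smad proteins and ligases 0 passed it either, with Smad7, an inhibitory Smad, at 129.6 and 116 and Smad4, the common mediator, at 80.7 and 82.8.

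Of 11 target genes, 8 had a log2 ratio below 0 and 3 above, with a median of -0.16, beside 5374 of 12621 genes below 0 among all. Id3 was at 1746 and 1537 UPM (0.881-fold, 0.856 to 0.906) and Id2 at 439 and 385 (0.877-fold, 0.828 to 0.929), both inhibitors of differentiation known to be induced by BMPs. Hey1, a target of Notch and BMP signaling, was at 6.69 and 12.9 UPM (1.93-fold, 1.27 to 2.98). The 15 dissociation and immediate-early genes, led by Fos at 6656 and 5324 and Jun at 3258 and 2615, moved with most targets. All 15 were below 0 with a median of -0.33, 3 were at least 1.5-fold lower (Atf3, Hspa1a and Hspa1b), beside 5.78% of all genes, and they summed to 25406 UPM in ND and 19586 in HFD. Their part in the target genes' values was not tested.

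**Figure D5:**
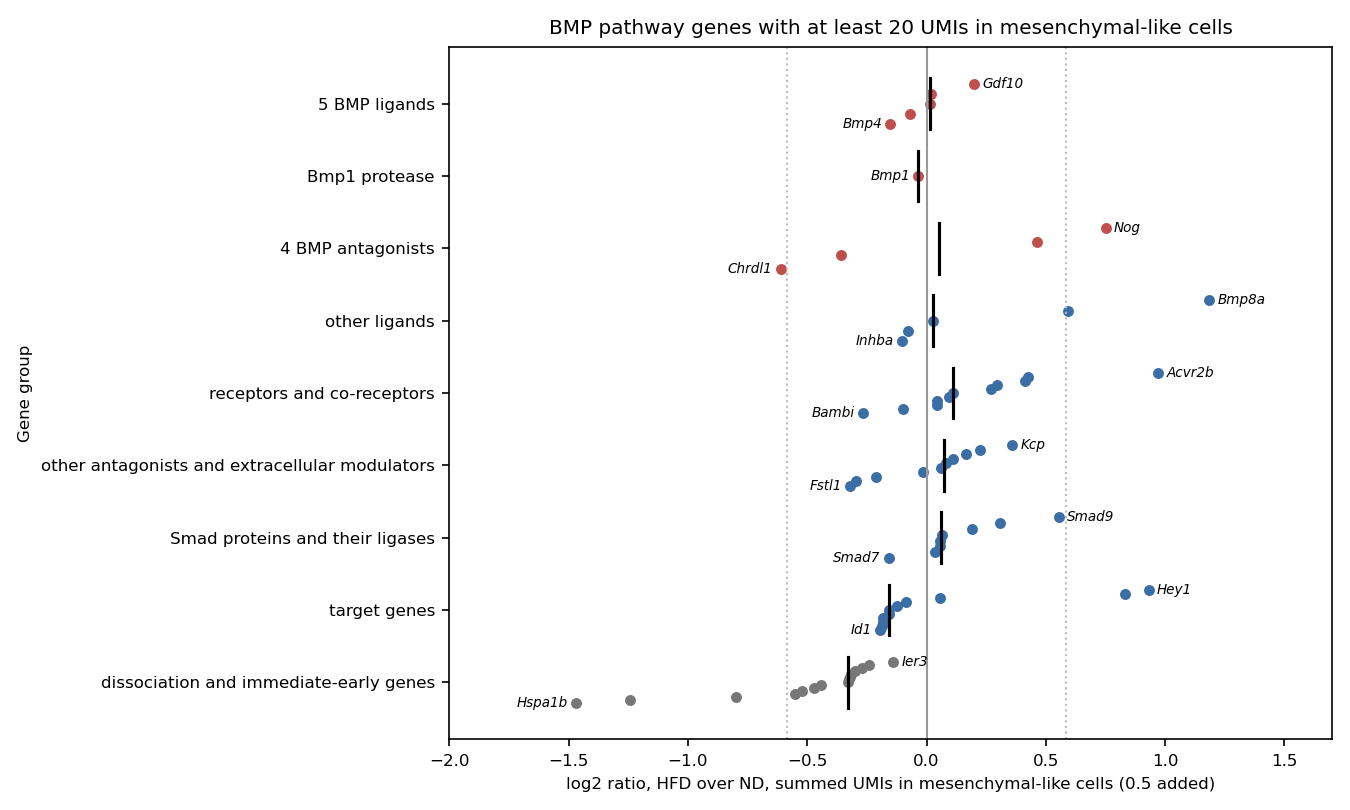
Log2 ratio of HFD over ND in mesenchymal-like cells (horizontal axis) of each gene with at least 20 UMIs by group, for the 10 genes (red), other pathway genes (blue) and dissociation genes (gray), with black bars at group medians and dotted lines at 1.5-fold. Among the 10 the antagonists spread from Chrdl1 at -0.61 to Nog at 0.75, the target gene median is -0.16, and all dissociation genes lie below 0.

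The levels of 3 further listed genes, Dlx5, Id1 and Eng, chosen after their values were seen, are given by subcluster with those of Id2, as a description. Dlx5, a transcription factor of osteoblast development, was at 325 and 301 UPM (ND and HFD) in the Nppc, Fbxo2 subcluster and at 259 and 219 in osteoblast-like cells, the sites of Grem1 and Nog, and at 22.5 and 9.23 in Col15a1/Ccl11 fibroblast-like cells. Id2 was highest of the 4 large subclusters in the Nppc, Fbxo2 subcluster, at 996 and 779, and lowest in Pi16/Dpp4 fibroblast-like cells, at 151 and 92.8. In the endothelial subclusters with high Bmp6, Id1 was at 901 and 1288 in the one led by Rgs5 and at 2121 and 2251 in the one led by Tnfsf9, beside 195 and 169.9 in mesenchymal-like cells. Eng, the co-receptor endoglin, was at 685 and 514 and at 451 and 754 in the same subclusters, beside 10.1 and 15.6 in Pi16/Dpp4 and 36.3 and 46.7 in Col15a1/Ccl11 fibroblast-like cells. Lymphatic-like cells were not set beside them, so no link of Id1 or Eng with Bmp6 can be read. The dissociation and immediate-early genes summed to 11161 and 9107 UPM in the Rgs5-led subcluster and 56274 and 41673 in the Tnfsf9-led one. In lymphatic-like cells they summed to 31920 and 23962, and their part was not tested.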

How the data were processed

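Single-cell RNA from the pooled periosteal cells of 4 mice per diet was sequenced as 1 droplet library per diet. The authors deposited UMI counts per gene and barcode, made with Cell Ranger 6.0.1 against mm10 according to the submitters' processing notes. The sources used here do not state whether counting used strand.

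From these counts, barcodes were kept that had over 500 and under 8000 detected genes and a mitochondrial share below 20%, which left out 285 (ND) and 412 (HFD), with median depths of 4610 and 4823.5 UMIs. Both libraries were clustered together with Seurat 5.3.0 and sctransform 0.4.2 (R 4.3.3; 30 principal components, resolution 0.5) without the 10 genes, and mesenchymal-like and endothelial-like cells were clustered again. A cluster was named when at least 3 markers of a type had at least 20 UMIs and stood at least 2-fold over the median cluster. Markers of another type could not outnumber its own among its 10 leading genes, so some named clusters hold a contrary marker there. Shallow clusters without an own marker among these genes, and clusters made mostly of called doublets, stayed unnamed. In this way 12 classes were named. The clusters were known when the limits of this naming rule were set, and rebuilt names may differ from those of the study. Scrublet in scanpy 1.11.5 (expected rate 5%) called 166 ND (2.75%) and 100 HFD (1.61%) barcodes as doublets, which were kept and removed in an alternative.

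Counts were summed per class and library with Python 3.11.15, pandas 2.3.3 and numpy 2.4.6. Intervals were exact Poisson for levels, Clopper-Pearson for shares and conditional binomial for ratios (95%, scipy 1.17.1), and a count of 0 was read as allowing up to 3 counts. Log2 ratios had 0.5 UMIs added. Ratios were taken for genes with at least 20 UMIs, and a ratio of 1.5 either way counted as past the limit. The ratio code was tested on simulated data. Alternatives were other filters, resolutions, weights, minima, fold limits and depth thinning.

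All 10 genes were named in every class. Per pathway group, the 2 genes with most UMIs in mesenchymal-like cells and any at least 1.5-fold apart with 100 or more UMIs were named, and for likeness the 3 genes with the highest lower r among those with at least 200 UMIs, or the first of these. The members and lists were chosen with earlier results of these data known.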

Additional observations from a re-analysis of the deposited data

Results flagged for a closer look

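For 2 of the 10 genes the HFD to ND ratio lay on opposite sides of 1 in different cells, with an interval wholly above 1 in some and wholly below 1 in others, and these differences were not tested. Gdf10 was at 0.526 in the Nppc, Fbxo2 subcluster, against 3.89 in the subcluster led by the neutrophil genes Retnlg, Stfa2l1 and Cstdc4 and 6.70 in chondrocyte-like cells. Without the cell with most UMIs in each library these were 0.506, 1.97 and 31.6, and 20 of the 31 HFD UMIs in the neutrophil-led subcluster were in 1 cell. The 31.6 rests on fewer than 3 ND UMIs, so its size cannot be read. Fst was at 0.722 in the Nppc, Fbxo2 subcluster, against 1.53 in Col15a1/Ccl11 fibroblast-like cells, 1.69 in Pi16/Dpp4 fibroblast-like cells and 2.71 in the neutrophil-led subcluster (1.81 without the cell with most UMIs in each library). By class, Fst was at 1.38 in mesenchymal-like cells and 3.92 in pericyte and smooth muscle-like cells with the 0 ND UMIs read as 3 (exact 95% lower limit 2.92), against 0.458 in B cell-like and 0.0895 in hematopoietic progenitor-like cells. In each of the last 3 classes 1 cell held most of the UMIs of 1 library.

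The 412 HFD barcodes left out by the filter held 529088 UMIs, among them 9 of Bmp1 (17.0 UPM), 7 of Bmp2 (13.2 UPM), 5 of Bmp6 (9.45 UPM) and 5 of Gdf10 (9.45 UPM). Each lay above the limit that a count of 0 allows.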

How the results depend on the processing

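No paired analysis was possible because each diet is 1 pooled library and no barcode is tied to a mouse, and for the same reason no replicate could be left out. In mesenchymal-like cells, the 1 gene higher (Nog) and the 1 lower (Chrdl1) in HFD became 0 and 0 with cells thinned to 1000 UMIs, with equal subcluster weights and with a 2-fold limit. The count of higher genes was 0 with the mean over cells, and that of lower genes 0 with doublets removed. With thinned cells, the median log2 ratio of the 9 genes with enough UMIs was -0.32, beside 0.04 for all genes. These values rest on few UMIs, as with Nog, found in 11 ND and 13 HFD thinned mesenchymal-like cells. With thinning 1 gene kept its leading subcluster, and 0 of 10 gene and class pairs passed 1.5-fold, where 26 pairs were measured at full depth. Both counts are given without the share of all genes at that depth. With a minimum of 50 UMIs, 4 of 15 pairs did, a count with no share of all pairs beside it. Nog was at -0.47 (log2) with thinned cells, against 0.75, and at 0.21 with the mean over cells. Fst in B cell-like cells was at 1.06 without the cell with most UMIs in each library, against -1.09 with it. That setting, and leaving out the shallow and the neutrophil-led subclusters, were chosen after seeing the data. UMIs per cell in place of UPM moved the median of all genes from 0.05 to -0.11. Cause was not tested for any of these beyond the fewer UMIs that thinning leaves. Of the values for all comparisons under alternatives, 68 kept within their range and 12 did not, and of those for single genes 241 did, 12 moved and 2 changed direction. Depth limits Bmp6 (53 and 74 UMIs) and Nog (88 and 217) most, and 1 library per diet leaves variation between mice unmeasured.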
